A study of Homo sapiens with 8 samples.

Results

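Glycosyltransferases of mucin-type O-glycans and of sialylation, together with the mucins that carry such glycans, were compared between spheroids of the cisplatin-resistant line OVCAR-8R and of its parental line OVCAR-8. The members were all genes named alone by a probeset whose symbols belong to the GALNT, ST3GAL, ST6GAL, ST6GALNAC, ST8SIA, FUT, B3GNT, B3GALT, B4GALT, B4GALNT, GCNT, MGAT, C1GALT1 or numbered MUC families, with 1 mucin left out by the rule. Of 18417 genes named alone on the array, 103 are members, measured by 118 probesets, and 90 of them passed the filter on low signal and were tested.

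OVCAR-8 is an ovarian adenocarcinoma cell line. OVCAR-8R, which the sample labels call OVCAR-8C, was selected from it with cisplatin in steps up to 5 μM and stayed resistant once the drug was withdrawn. The sources used here do not say whether it is a single clone. Each line is represented by 4 Affymetrix Human Gene 1.0 ST arrays of spheroids of about 300 μm, grown in agarose molds in the same serum-containing medium. Treatment and line history differ together, and no OVCAR-8 spheroids passaged without drug for the same time were among the samples. All values below are log2 RMA signals, and every difference is the mean of OVCAR-8R minus the mean of OVCAR-8 with its standard error (SE) from limma. A call requires a change of 2-fold or more together with a p-value, adjusted by Benjamini-Hochberg across the retained probesets, below 0.05. Signals of different probesets are not comparable with each other, so levels are compared only between the lines.

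Mucin-type O-glycosylation starts in the Golgi, where GALNT enzymes attach N-acetylgalactosamine (GalNAc) to serine or threonine. C1GALT1 then adds galactose to form core 1, GCNT enzymes add branches, and several B3GNT, B3GALT and B4GALT enzymes lengthen the chains. Sialyltransferases and fucosyltransferases cap the chains, and several of the same enzymes act on N-linked glycans and on glycolipids. Mucins such as MUC1 are heavily O-glycosylated surface proteins of epithelial cells, and truncated or sialylated O-glycans are well-known tumour antigens in ovarian and other carcinomas.

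Of the markers of the ovarian carcinoma lineage, PAX8 averaged 10.28 on the OVCAR-8R arrays and 6.51 on the parental arrays (log2 signal), and KRT7, KRT8, KRT18 and EPCAM were also higher in OVCAR-8R. WT1 and KRT19 were not called, with log2 differences of -0.86, opposite in direction to the other markers, and 0.08. The leukocyte markers PTPRC and CD3E lay in the lowest quartile in both lines, and CD14, the endothelial markers PECAM1, CDH5 and VWF and the globin gene HBB had log2 differences between -0.10 and 0.23. CD68, a lysosomal protein of macrophages and of other cells, rose by 2.52 on the log2 scale. The part of these marker differences in the results below was not tested, and a change in RNA per cell cannot be told apart from a change in the makeup of the cells.

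Of the 90 members tested, 9 rose and 9 fell in OVCAR-8R, and 72 were not called. Over all 15931 genes tested, 8.37% were higher and 8.37% were lower, so the members changed about as often as other genes, and their median difference of -0.01 was that of all genes. Every group of enzymes held at least 1 called gene, beside 16.7% of all genes called in either direction. The initiating enzyme GALNT13 fell by 4.71 on the log2 scale and the sialyltransferase ST3GAL6 by 2.66, while the largest rises were those of GALNT14 (1.76), MUC1 (1.65) and B4GALT5 (1.59). None of the 17 sialyltransferases tested was called higher and 3 were lower. The arrays of the lines did not overlap for 46 of the 90 members (51.1%), among them the 18 called, against 56.8% of all genes tested. The test for more than 2-fold (treat of limma) passed 7 of the 90 members (7.78%) and 9.26% of all genes. These 7 were GALNT13, GALNT14, GALNT12, ST3GAL6, B4GALT5, B3GNT5 and MGAT4B.

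**Figure D1:**
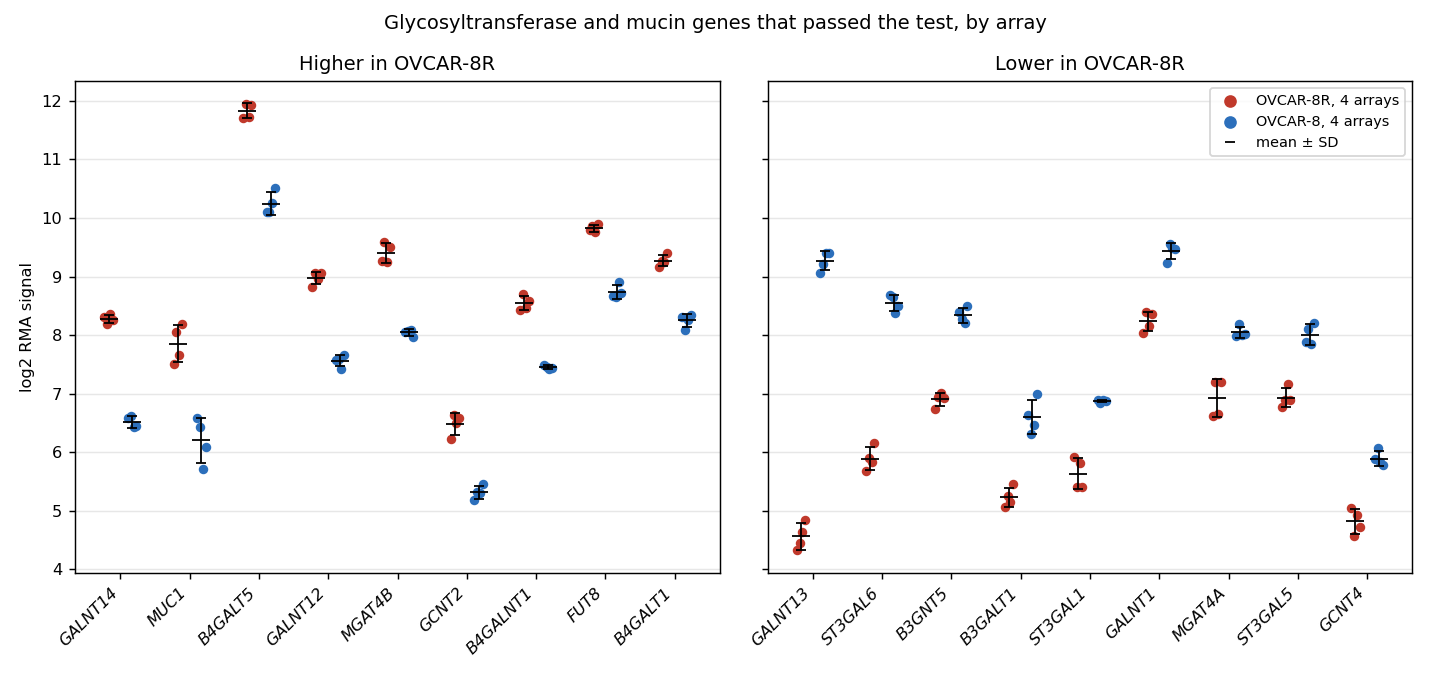
Log2 RMA signal of the 18 called members on each of the 4 OVCAR-8R arrays (red) and 4 parental arrays (blue). Black marks give the line means with their SD, and genes follow the size of the difference. The widest gap is that of GALNT13, at 4.71 on the log2 scale, and the lines overlap for none of the 18 genes.

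The upstream sequences of the enzymes with the largest changes are shown first, the largest and second-largest falls (GALNT13, ST3GAL6) and the largest and second-largest rises among the enzymes (GALNT14, B4GALT5). Each sequence holds the 250 bases before the gene's start in RefSeq (GRCh38.p14), written 5′ to 3′ on the strand of the gene. Capitals mark, on either strand, the GC box GGGCGG bound by SP1, the AP-1 site TGACTCA, the TEAD site GGAATG and the TATA box TATAAA, none of which overlap here.
GALNT13, chr2:153477651-153477900, plus strand: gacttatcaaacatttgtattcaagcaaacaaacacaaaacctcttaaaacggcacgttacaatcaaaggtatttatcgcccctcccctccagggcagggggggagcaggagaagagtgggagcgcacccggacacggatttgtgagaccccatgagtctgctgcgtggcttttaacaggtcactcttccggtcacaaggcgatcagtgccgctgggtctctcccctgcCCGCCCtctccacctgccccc
ST3GAL6, chr3:98763090-98763339, plus strand: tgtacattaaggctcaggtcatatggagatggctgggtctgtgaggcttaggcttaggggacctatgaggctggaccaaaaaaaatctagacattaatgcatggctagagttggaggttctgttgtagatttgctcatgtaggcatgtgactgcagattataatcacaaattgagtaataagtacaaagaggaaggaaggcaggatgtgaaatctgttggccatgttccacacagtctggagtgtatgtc
GALNT14, chr2:31129641-31129890, minus strand: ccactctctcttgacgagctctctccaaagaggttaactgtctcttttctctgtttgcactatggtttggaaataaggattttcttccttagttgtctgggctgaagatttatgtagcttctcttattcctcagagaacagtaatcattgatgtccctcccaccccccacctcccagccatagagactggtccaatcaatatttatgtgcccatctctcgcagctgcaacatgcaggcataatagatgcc
B4GALT5, chr20:49713879-49714128, minus strand: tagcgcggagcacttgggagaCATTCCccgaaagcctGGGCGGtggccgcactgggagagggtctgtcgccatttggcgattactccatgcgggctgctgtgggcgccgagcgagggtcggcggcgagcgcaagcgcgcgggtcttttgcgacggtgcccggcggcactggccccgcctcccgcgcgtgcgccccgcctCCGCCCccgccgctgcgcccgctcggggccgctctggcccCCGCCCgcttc

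The 4 upstream sequences differ in composition. The B4GALT5 sequence holds 37 CpG dinucleotides, 3 GC boxes and 1 TEAD site, and G and C make up 75.6% of its bases. GALNT13 has 11 CpG dinucleotides and 1 GC box, GALNT14 has 2 CpG dinucleotides, and ST3GAL6 has none. The letters of the motifs are absent from the GALNT14 and ST3GAL6 windows, which says only that they are not in these 250 bases of the 1 start site listed per gene. Among members with an upstream sequence in the table, the GC box was found in 6 of 8 higher genes, 4 of 7 lower genes and 34 of 50 genes not called, against 42.6% of all 35116 upstream sequences. The TEAD letters were found in 3 of 8 higher, 0 of 7 lower and 3 of 50 genes not called, against 11.9% of all upstream sequences. The AP-1 letters were found in none of the 15 called members with a sequence and in 4.2% of all. The sequences of the background include genes that were not tested here, and their composition differs from that of the members. Median G and C content was 70.6% in higher, 68% in lower and 65% in uncalled members, against 58% over all upstream sequences. The part of composition in the motif counts was not tested.

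Among the GALNT enzymes, which attach the first sugar, 2 of 16 tested were higher, 2 were lower and 12 were not called. Over all genes, 8.37% were called in each direction. GALNT13, an isoform best known from neurons, had log2 signals of 4.33, 4.45, 4.63 and 4.85 on the OVCAR-8R arrays and 9.06, 9.22, 9.41 and 9.40 on the OVCAR-8 arrays. The gene fell from a clear signal in all OVCAR-8 arrays into the lowest quartile in all OVCAR-8R arrays, where signal is near background. The difference was -4.71 (SE 0.13, adjusted p = 2.52e-09, 26.2-fold), and its size is uncertain because the dimmer line is near background. GALNT1, a broadly expressed initiating enzyme, had signals of 8.04, 8.39, 8.15 and 8.36 in OVCAR-8R and 9.24, 9.56, 9.49 and 9.46 in OVCAR-8. It fell by 1.20 (SE 0.10, adjusted p = 6.60e-06), a 2.30-fold difference.

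GALNT14, an enzyme known to glycosylate death receptors, had signals of 8.30, 8.19, 8.36 and 8.25 in OVCAR-8R and 6.58, 6.62, 6.43 and 6.44 in OVCAR-8. It rose by 1.76 (SE 0.08, adjusted p = 6.05e-08, 3.38-fold). GALNT12, an enzyme strongly expressed in colon, had signals of 8.82, 9.06, 8.96 and 9.06 in OVCAR-8R and 7.57, 7.59, 7.43 and 7.66 in OVCAR-8, and rose by 1.41 (SE 0.08, adjusted p = 4.78e-07). Every OVCAR-8R array lay above every OVCAR-8 array for both genes. Among the 12 not called, GALNT10 and GALNT2 had differences of 0.81 and 0.72 and GALNT16 one of -0.58, with adjusted p-values of 5.20e-05, 1.75e-05 and 0.000831, under the 2-fold threshold. GALNT18 and GALNT8 had differences of -0.24 and -0.28 with adjusted p under 0.05. The other 7, among them GALNT6, GALNT7 and GALNT11, lay between -0.15 and 0.15 and had adjusted p-values over 0.05. GALNT3, GALNT5 and GALNTL5 did not pass the filter, with log2 signals under 5 in both lines.

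The core and branching enzymes, 8 of 8 tested, had 1 higher and 1 lower gene, beside 8.37% of all genes in each direction. C1GALT1, the core 1 synthase, had a difference of 0.22 (95% confidence interval -0.08 to 0.51), and its chaperone C1GALT1C1 (COSMC) one of -0.54 (-0.81 to -0.27). GCNT2, which makes the I branch on lactosamine chains, had signals of 6.22, 6.64, 6.49 and 6.58 in OVCAR-8R and 5.19, 5.32, 5.30 and 5.47 in OVCAR-8. It rose by 1.16 (SE 0.10, adjusted p = 8.30e-06). GCNT4, a core 2 branching enzyme, had signals of 5.05, 4.57, 4.93 and 4.73 in OVCAR-8R and 5.88, 6.07, 5.83 and 5.78 in OVCAR-8, and fell by 1.07 (SE 0.11, adjusted p = 2.77e-05). The OVCAR-8R mean of GCNT4 lay in the lowest quartile, and without OVCAR-8R array 2 the difference was -0.99 and the call was lost. B3GNT6, the core 3 synthase, and GCNT3 both had differences of 0.28, GCNT7 one of 0.09 and C1GALT1C1L, a gene related to the chaperone, one of -0.81.

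**Figure D2:**
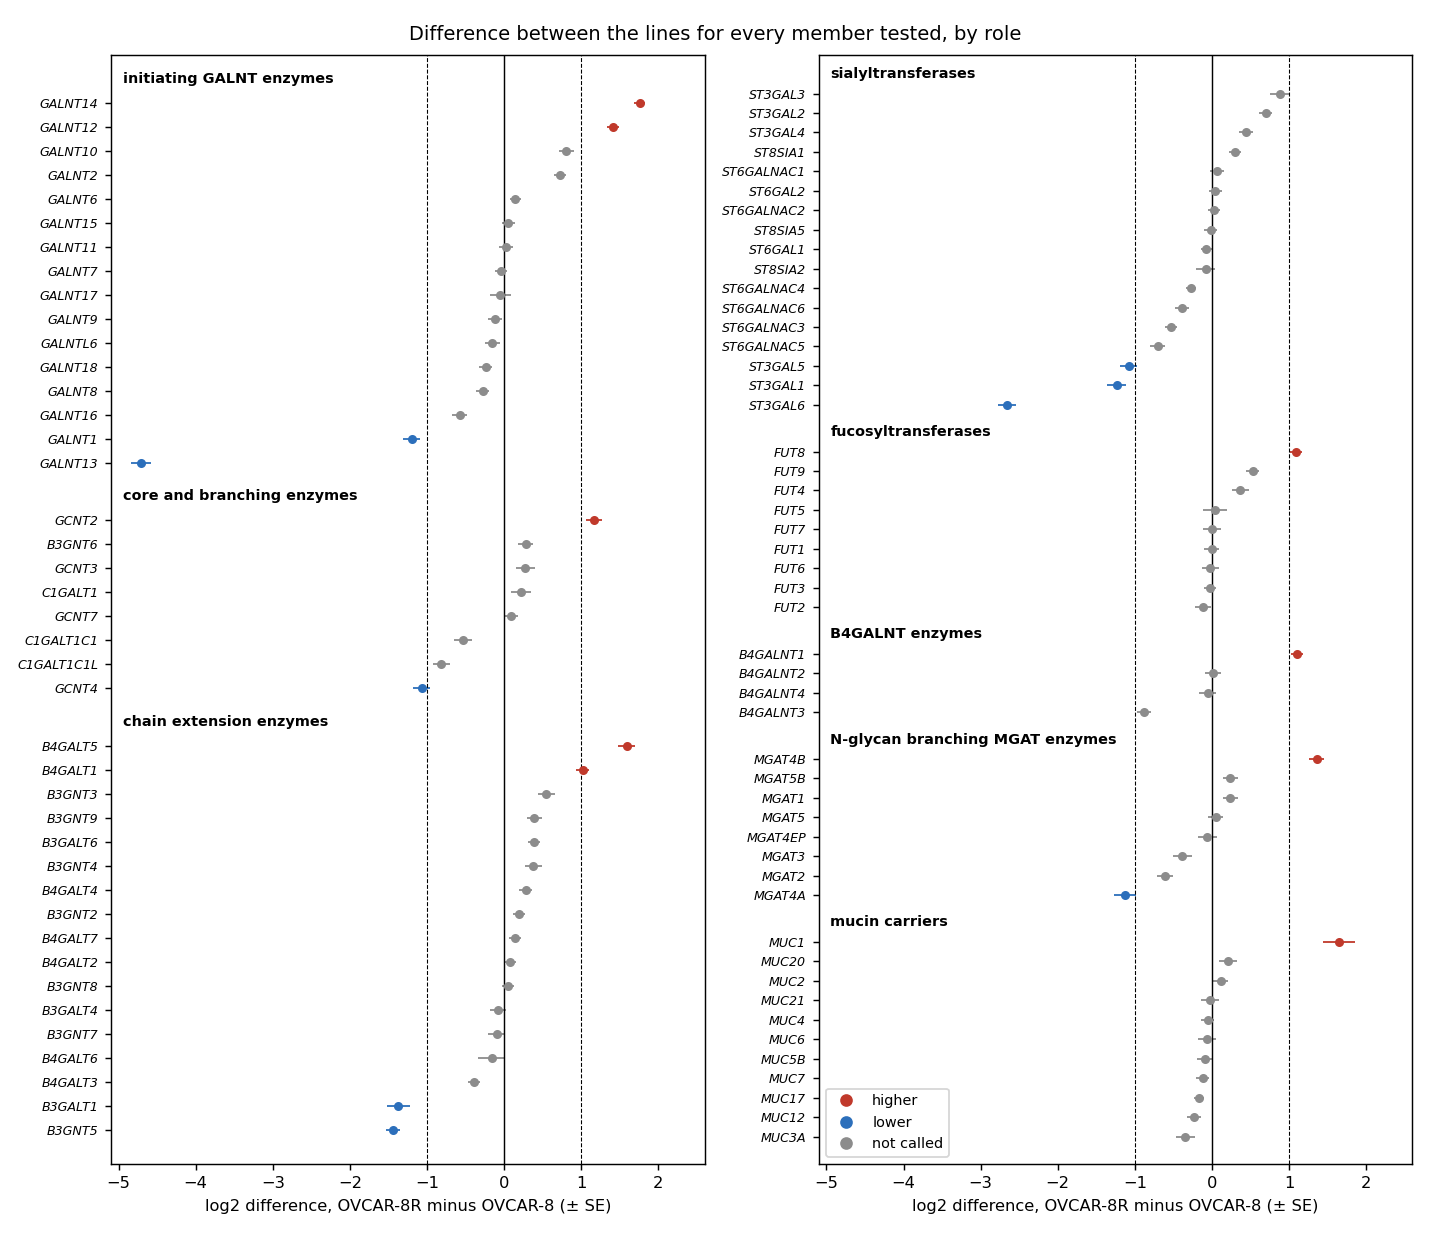
Log2 difference (OVCAR-8R minus OVCAR-8, with SE) of each of the 90 members tested, grouped by role, with called genes in red (higher) and blue (lower), others in grey, and dashed lines at 2-fold. Called genes stand at both ends of 4 of the 8 groups. The sialyltransferases have them at the lower end, and the fucosyltransferases, B4GALNT enzymes and mucins at the upper end, with 1 called gene each. Over all genes, 8.37% were called in each direction.

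Of 17 chain extension enzymes tested, grouped by symbol, 2 were higher, 2 were lower and 13 were not called. Over all genes, 8.37% were called in each direction. B4GALT5, which makes lactosylceramide, had signals of 11.71, 11.95, 11.73 and 11.93 in OVCAR-8R and 10.11, 10.10, 10.25 and 10.51 in OVCAR-8. It rose by 1.59 (SE 0.11, adjusted p = 1.34e-06). B4GALT6, the other lactosylceramide synthase, had a difference of -0.16 (95% confidence interval -0.55 to 0.23). B4GALT1, the main galactosyltransferase of N-glycans, had signals of 9.16, 9.27, 9.25 and 9.40 in OVCAR-8R and 8.31, 8.09, 8.26 and 8.35 in OVCAR-8. Its difference of 1.02 (SE 0.08, adjusted p = 4.49e-06) was just past 2-fold, and was 0.98 without OVCAR-8R array 4 and 0.97 without OVCAR-8 array 2, where the call was lost.

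B3GNT5, which starts the lacto-series of glycolipids, had signals of 6.74, 6.94, 7.01 and 6.93 in OVCAR-8R and 8.39, 8.27, 8.20 and 8.50 in OVCAR-8, and fell by 1.44 (SE 0.09, adjusted p = 7.87e-07). B3GALT1, which makes type 1 chains, had signals of 5.07, 5.25, 5.15 and 5.45 in OVCAR-8R and 6.63, 6.31, 6.47 and 7.0 in OVCAR-8. It fell by 1.37 (SE 0.15, adjusted p = 2.87e-05), and the groups were separated for both genes. B3GNT3, an enzyme that extends core 1, had a difference of 0.55 and B3GNT2, the main polylactosamine synthase, one of 0.19. The remaining enzymes not called lay between -0.39 (B4GALT3) and 0.39 (B3GNT9 and B3GALT6), and B3GALT2 and B3GALT5 did not pass the filter.

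Among the 17 sialyltransferases tested, the ST3GAL enzymes, which add sialic acid in α2,3 linkage to galactose, held all the calls. ST3GAL6, which acts on lactosamine ends and contributes to selectin ligands, had signals of 5.68, 5.90, 5.83 and 6.16 in OVCAR-8R and 8.68, 8.65, 8.37 and 8.49 in OVCAR-8. It fell by 2.66 (SE 0.11, adjusted p = 5.69e-08), a 6.31-fold difference and the second largest among the members. ST3GAL1, which caps core 1 O-glycans, had signals of 5.91, 5.41, 5.81 and 5.41 in OVCAR-8R and 6.88, 6.85, 6.89 and 6.88 in OVCAR-8, and fell by 1.24 (SE 0.12, adjusted p = 1.45e-05). Its OVCAR-8 arrays lay close together, and its OVCAR-8R arrays 1 and 3 were above arrays 2 and 4. ST3GAL5, the GM3 synthase that starts the gangliosides, had signals of 6.77, 6.89, 7.16 and 6.89 in OVCAR-8R and 7.88, 8.10, 7.86 and 8.21 in OVCAR-8, and fell by 1.08 (SE 0.11, adjusted p = 2.19e-05).

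The other ST3GAL enzymes had differences in the opposite direction under 2-fold. ST3GAL3 had a difference of 0.88 (95% confidence interval 0.60 to 1.16, adjusted p = 0.000204), ST3GAL2 one of 0.70 (0.50 to 0.89, adjusted p = 8.18e-05) and ST3GAL4 one of 0.44 (0.24 to 0.64, adjusted p = 0.00224). All 6 enzymes of the family therefore passed the test at any size, 3 in each direction, against 27.6% higher and 30% lower over all genes, and the arrays of the lines were separate for each of the 6, as they were for 56.8% of all genes. The α2,6 enzymes of N-glycans, ST6GAL1 and ST6GAL2, had differences of -0.07 and 0.04 with overlapping arrays. Of 6 ST6GALNAC enzymes, which sialylate GalNAc itself or sialylated core 1 and gangliosides, none was called and 4 passed the test at any size, all lower. These were ST6GALNAC5 (-0.71), ST6GALNAC3 (-0.53), ST6GALNAC6 (-0.39) and ST6GALNAC4 (-0.27). ST6GALNAC1, the synthase of the sialyl-Tn antigen, and ST6GALNAC2 had differences of 0.07 and 0.03. Each ST6GALNAC gene is measured by 2 or 3 probesets, which had the same direction for every gene, but those of ST6GALNAC2 hold identical values and are not separate measurements.

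Of the ST8SIA enzymes, which add sialic acid to sialic acid, only ST8SIA1, ST8SIA2 and ST8SIA5 were tested. ST8SIA1, the GD3 synthase, had a difference of 0.29 (adjusted p = 0.00987), although its dimmer probeset, which did not pass the filter, gave -0.15. ST8SIA2, a polysialic acid synthase, had one of -0.08 and ST8SIA5 one of -0.02. ST8SIA3, ST8SIA4 and ST8SIA6 lay in the lowest quartile in both lines.

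Among 9 fucosyltransferases tested, 1 was higher and none was lower, beside 8.37% of all genes in each direction. FUT8, which adds the core fucose of N-glycans, had signals of 9.79, 9.86, 9.77 and 9.89 in OVCAR-8R and 8.67, 8.65, 8.91 and 8.72 in OVCAR-8, and rose by 1.09 (SE 0.08, adjusted p = 1.93e-06). The other fucosyltransferases tested were not called. FUT9 and FUT4, which make Lewis x, had differences of 0.53 and 0.37, and FUT1, FUT2, FUT3, FUT5, FUT6 and FUT7 lay between -0.12 and 0.04 with overlapping arrays. The FUT3, FUT5 and FUT6 genes are close paralogs, so their probesets may share signal.

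B4GALNT1, which makes the gangliosides GM2 and GD2, had signals of 8.43, 8.71, 8.47 and 8.59 in OVCAR-8R and 7.49, 7.45, 7.42 and 7.44 in OVCAR-8. It rose by 1.1 (SE 0.08, adjusted p = 1.62e-06) as 1 of 4 B4GALNT genes tested, beside 8.37% of all genes called higher. B4GALNT3 had a difference of -0.88 (adjusted p = 2.20e-05), and B4GALNT2 and B4GALNT4 differences of 0.01 and -0.06. The members that act on glycolipids thus included both directions, with B4GALT5 and B4GALNT1 higher and ST3GAL5 and B3GNT5 lower.

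Of 8 MGAT genes tested, which build the antennae of N-glycans, 1 was higher and 1 was lower. Over all genes, 8.37% were called in each direction. Both called genes encode enzymes that add the same β1,4 branch. MGAT4B had signals of 9.27, 9.59, 9.24 and 9.51 in OVCAR-8R and 8.05, 8.08, 8.09 and 7.96 in OVCAR-8, and rose by 1.36 (SE 0.09, adjusted p = 1.40e-06). MGAT4A had signals of 6.63, 7.19, 6.66 and 7.21 in OVCAR-8R and 7.98, 8.18, 8.00 and 8.02 in OVCAR-8, and fell by 1.13 (SE 0.15, adjusted p = 0.000108). The lines were separated for both, but the OVCAR-8R arrays of MGAT4A fell into 2 pairs, and without the lower pair, arrays 1 and 3, the difference was -0.85 and under 2-fold. MGAT5, whose β1,6 branch is a known feature of metastatic cells, had a difference of 0.05 (95% confidence interval -0.16 to 0.25). MGAT1 and MGAT5B had differences of 0.24, MGAT2 one of -0.61, MGAT3 one of -0.38 and the pseudogene MGAT4EP one of -0.06. MGAT4C and MGAT4D did not pass the filter.

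Of 11 mucin genes tested, MUC1 was higher and 10 were not called, beside 8.37% of all genes in each direction. MUC1, the transmembrane mucin of glandular epithelium, had signals of 7.51, 8.05, 7.66 and 8.19 in OVCAR-8R and 6.58, 6.43, 5.71 and 6.09 in OVCAR-8. It rose by 1.65 (SE 0.21, adjusted p = 8.88e-05, 3.14-fold), with SDs of 0.32 (OVCAR-8R) and 0.39 (OVCAR-8). The lowest OVCAR-8R array still lay above the highest OVCAR-8 array. The gel-forming mucins MUC2, MUC5B and MUC6 had differences of 0.11, -0.09 and -0.06, and the transmembrane mucins MUC4, MUC12, MUC17, MUC20 and MUC21 lay between -0.23 and 0.21. MUC3A had a difference of -0.34 (adjusted p = 0.0377) and MUC7 one of -0.12. MUC13, MUC15 and MUC19 did not pass the filter.

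The deviation of OVCAR-8R arrays 1 and 3 from arrays 2 and 4 ran through most called members. Over all probesets kept, arrays 1 and 3 deviated together from the mean of the line (r = 0.427 across probesets), as did arrays 2 and 4 (r = 0.484). In 15 of the 18 called members, arrays 2 and 4 both lay on one side of arrays 1 and 3, higher in 12 of them and lower in GALNT14, GCNT4 and ST3GAL1. The exceptions were GALNT13, B3GNT5 and ST3GAL5. Over all 90 members tested, the same held for 62, with arrays 2 and 4 higher in 23 and lower in 39. The split was counted in the members only, so whether they differ from other genes in it was not tested. With arrays 1 and 3 left out, 10 members were higher and 8 were lower, beside 16.5% of all genes called in either direction. With arrays 2 and 4 left out, 7 were higher and 8 were lower, beside 17.3% of all genes. Both settings were chosen after seeing the data. ST3GAL3 passed in the first of these, with a difference of 1.05.

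**Figure D3:**
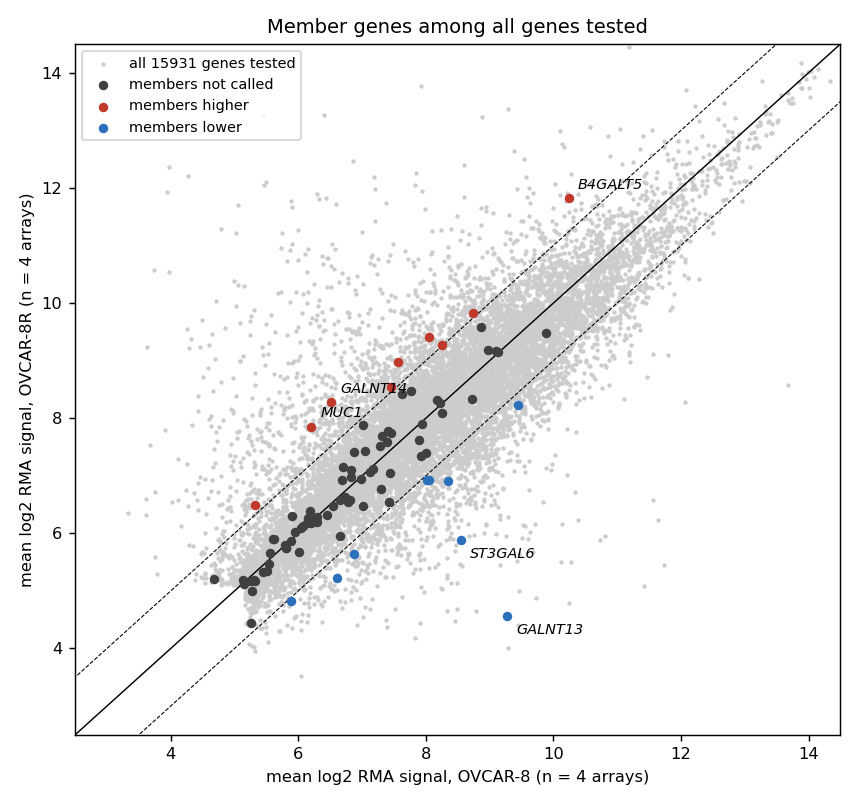
Mean log2 RMA signal in OVCAR-8 (horizontal) and OVCAR-8R (vertical) of all 15931 genes tested (light grey) and of the 90 members, with higher members in red, lower members in blue and the others in dark grey. The solid line is equality and the dashed lines are 2-fold, and GALNT13 stands farthest below them among the members, at 4.56 against 9.27.

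Near the low end of signal, 7 of the 90 members passed the filter through one line only. These were GALNT13, GCNT4, GALNT8 and C1GALT1C1L, dim in OVCAR-8R, and FUT3, FUT9 and GALNT15, dim in OVCAR-8. A member that passes in this way is more likely to differ, and of the 7 only GALNT13 and GCNT4 were called. When all 103 members were tested without a filter, the same 18 genes were called. The 13 members below the filter had differences between -0.59 (ST8SIA4) and 0.16 (GALNT5).

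Other genes of the same pathways were examined in 8 lists, in which 14 genes were higher, 6 were lower and 81 were not called, beside 8.37% higher and 8.37% lower over all genes. Of 18 genes of nucleotide sugar supply, 3 were higher and 1 was lower. SLC35D2, a Golgi carrier of UDP-N-acetylglucosamine (UDP-GlcNAc) and other nucleotide sugars, rose by 3.05 (SE 0.08, adjusted p = 2.34e-09), from a signal near background in OVCAR-8 with a mean of 4.71. SLC35A3, the main Golgi carrier of UDP-GlcNAc, rose by 2.19 (SE 0.13), and UAP1, which makes UDP-GlcNAc and UDP-GalNAc, by 1.27 (SE 0.07). SLC35D1, a carrier of the endoplasmic reticulum, fell by 1.42 (SE 0.14). SLC35A2, the UDP-galactose carrier, and GFPT1, which commits glucose to hexosamine synthesis, had differences of 0.02 and -0.05. The median of the list was 0.08, against -0.01 over all genes.

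Of 11 genes of sialic acid supply and removal, only NEU1 was called, beside 8.37% of all genes in each direction. NEU1, the lysosomal sialidase, had signals of 10.15, 9.98, 10.10 and 9.91 in OVCAR-8R and 8.93, 8.57, 8.70 and 8.69 in OVCAR-8, and rose by 1.31 (SE 0.09, adjusted p = 1.73e-06). CTSA, the protective protein that holds NEU1 in an active complex, rose by 1.27 (SE 0.08) among the lysosomal genes, and GLB1, the galactosidase of that complex, had a difference of 0.87. NEU3, the sialidase of gangliosides at the cell surface, had a difference of -0.93 and passed without OVCAR-8R array 1 (-1.0). GNE, which starts sialic acid synthesis, CMAS, which activates sialic acid, and SLC35A1, its carrier into the Golgi, had differences of 0.42, -0.56 and 0.43. The list had a median of 0.10. GLA, the lysosomal α-galactosidase, fell by 3.77 (SE 0.07, adjusted p = 4.03e-10), as the only lower gene of 8 in the lysosomal list.

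In the glycolipid list, UGCG, which makes glucosylceramide and so supplies the substrate of B4GALT5, had signals of 11.39, 11.70, 11.44 and 11.73 in OVCAR-8R and 8.70, 9.09, 8.93 and 9.49 in OVCAR-8. It rose by 2.51 (SE 0.16, adjusted p = 8.51e-07). B3GALNT1, the globoside synthase, which is in 2 of the lists, had a difference of 1.0, at the threshold, and lost the call without OVCAR-8R array 1 or 2 or OVCAR-8 array 4, where the differences were 0.98, 0.97 and 0.90. Of 14 genes of early N-glycan processing, 3 were lower and none was higher, beside 8.37% of all genes in each direction, with a median of -0.23. MAN1A1, a Golgi mannosidase that trims N-glycans before the MGAT enzymes act, fell by 2.5 (SE 0.10, adjusted p = 4.46e-08). MANEA, an endomannosidase, fell by 1.25 (SE 0.12) and DPAGT1, which starts the lipid-linked precursor, by 1.07 (SE 0.10). Among other O-linked sugar enzymes, OGT, which adds GlcNAc to nuclear and cytosolic proteins, fell by 1.21 (SE 0.09), and its counterpart OGA had a difference of 0.55.

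Of 16 glycan-binding lectins and related genes tested, 4 were higher and none was lower, beside 8.37% of all genes in each direction. The galectin genes LGALS1, LGALS8 and LGALS3, whose proteins bind galactose-ended chains, rose by 4.35 (SE 0.11), 4.15 (SE 0.12) and 2.44 (SE 0.16), and LGALS3BP, a glycoprotein ligand of galectins, by 2.67 (SE 0.14). The siglec genes and the other galectin genes that were tested were not called, and the list's median was -0.00. Among the lectins not called, CD22 had a difference of 0.67 (adjusted p = 0.000852). Of 11 carriers of mucin-type O-glycans outside the MUC names, CD24, PODXL and FN1 were higher and 8 were not called, with a median of 0.38. FN1 rose by 5.86 (SE 0.13), the largest difference in the list. CD24, a small mucin-like surface protein, rose by 5.22 (SE 0.11) from near background in OVCAR-8, and PODXL (podocalyxin), a sialylated surface mucin, by 2.92 (SE 0.07). PODXL had signals of 10.71, 10.72, 10.73 and 10.71 in OVCAR-8R and 7.70, 7.79, 7.88 and 7.83 in OVCAR-8. Podoplanin (PDPN) and CD55 had differences of -0.35 and -0.43.

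**Figure D4:**
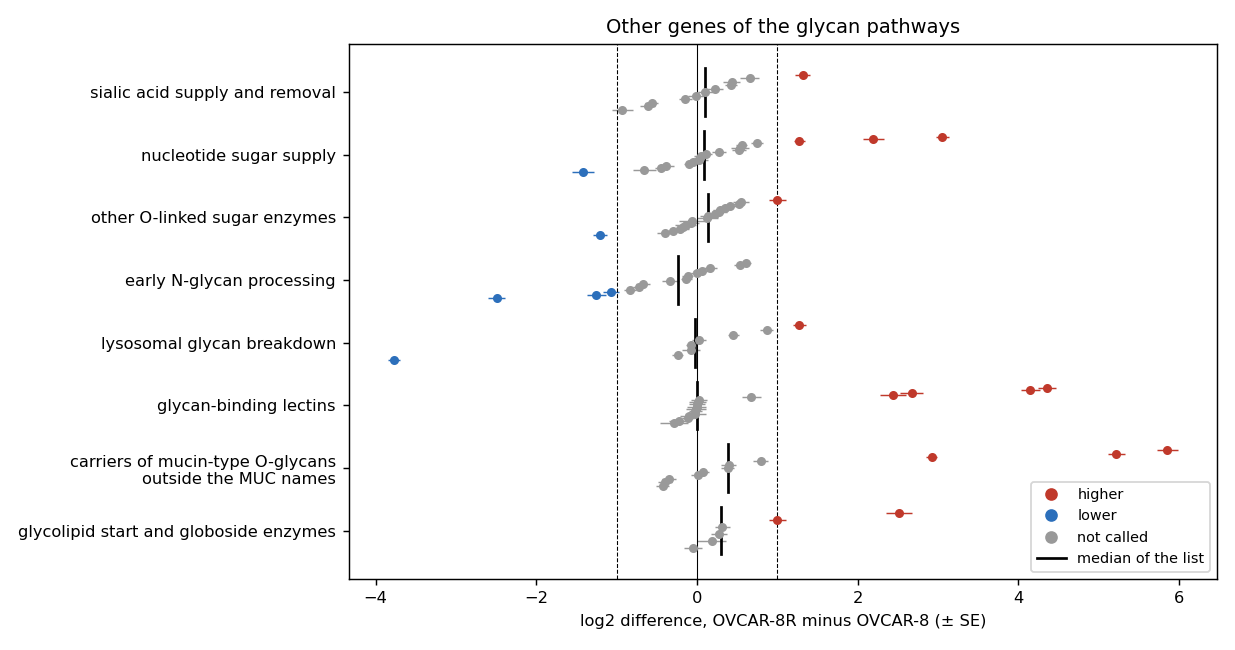
Log2 difference (OVCAR-8R minus OVCAR-8, with SE) of each tested gene of the 8 other pathway lists, with called genes in red (higher) and blue (lower), others in grey, list medians as black bars and dashed lines at 2-fold. LGALS1, LGALS8, LGALS3BP and LGALS3 among the lectins and FN1, CD24 and PODXL among the carriers lie far to the right. SLC35D2, UGCG and SLC35A3 of other lists also lie there, and GLA and MAN1A1 lie far to the left. List medians stay between -0.23 and 0.38.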

How the data were processed

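Affymetrix Human Gene 1.0 ST arrays measured RNA of 8 spheroid samples. The authors computed RMA signals in Affymetrix Expression Console (version 1.1), and the deposited table holds 1 linear intensity per probeset and array, without a filter, for 33297 probesets. The log2 of each intensity was taken here. RMA quantile-normalizes the arrays, which removes overall differences in signal. Probesets with a mean in the lowest 25% of both lines (cutoffs at log2 signals of 5.11 for OVCAR-8R, 5.16 for OVCAR-8) were removed, following the study's methods, and 25628 remained. Platform annotation names 1 gene for 19460 probesets, several for 1754 and none here for 12083. Of those with 1 gene, 19429 matched RefSeq (GRCh38.p14) by gene identifier. A gene was represented by its brightest probeset. The line effect was fitted in limma 3.58.1 under R 4.3.3 (lmFit, then eBayes) on all 8 arrays, without a block. The titles call the arrays biological replicates without naming the step at which they were separated, so the p-values reflect array-to-array spread, which may be technical.

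Alternatives were the study's own Student's t-test, filters, thresholds, an intensity trend, scalings, the mean of probesets, a replicate block and leaving out arrays. The members and the pathway lists were chosen with earlier results of these data known. By the rule for naming genes, any member could be named, and up to 4 called genes of each list in each direction. Uncalled list genes that are named were picked with their values known. The procedure was run on simulated data with independent noise for each probeset, which lack the shared deviations of the OVCAR-8R arrays. Arrays give no depth, and their number limits the precision. Upstream sequences were matched by gene identifier.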

Additional observations from a re-analysis of the deposited data

Results flagged for a closer look

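Within each line, a sample was singled out where its gap to the nearest of the other 3 arrays, as a share of the range of the 4 arrays, was over Dixon's critical value at 95%. Of 180 groups of 4 arrays screened, 2 for each of 90 members, 13 held such an array, and chance gives about 9. None of the 13 lies in a called member. OVCAR-8 array 4 was the outlying array in 6 of them, for B3GNT3 (ratio of gap to range 0.853), B3GNT2 (0.868), FUT5 (0.875), FUT6 (0.964), MUC21 (0.954) and MGAT5B (0.88). FUT6 had a log2 signal of 5.86 on this array and 6.30 to 6.32 on the other OVCAR-8 arrays, and MUC21 had 6.68 against 7.07 to 7.08. OVCAR-8R array 3 was outlying for MGAT3 (0.833), MGAT2 (0.892) and ST8SIA5 (0.908), and OVCAR-8R array 4 for GALNT10 (0.853). OVCAR-8 array 1 was outlying for B3GALT6 (0.936) and FUT4 (0.89), and OVCAR-8 array 3 for GALNT2 (0.846).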

How the results depend on the processing

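The 9 higher and 9 lower members were the same 18 genes without a filter, under the methods' t-test, an intensity trend, median-centring, cyclic loess and the mean of all probesets. With treat for more than 2-fold, 4 members were higher and 3 lower, and over all genes 832 were higher and 643 lower. In the lists together 2 genes were then lower, and of the 14 higher list genes only B3GALNT1 and NEU1 lost the call. With no size threshold, 23 members were higher and 23 lower (lists together 39 and 22, all genes 4396 and 4776). A filter at the median signal tested 52 members, so that B3GALT1, GCNT2 and GCNT4 were not tested. Leaving out 1 array gave 8 to 9 higher and 8 to 9 lower members, beside 16.5% to 17% of all genes called in either direction. Without the arrays of OVCAR-8R chosen after seeing the data, 1 and 3 or 2 and 4, MGAT4A (-0.85) or B4GALNT1 (1.0 after rounding), B4GALT1 (0.96) and GCNT4 (-0.90) lost the call. No direction of a called gene turned under any of these settings. Deviations of same-numbered arrays of the 2 lines were correlated at r of 0.165, -0.323, -0.0515 and 0.443. Between arrays of the 2 lines with other numbers, r ran from -0.467 to 0.383. Whether the numbers pair the samples therefore cannot be told from these values. The fit with a replicate block called the same 18 members, 9 higher and 9 lower. DPAGT1 lost the call under cyclic loess (-0.98) and B3GALNT1 under median-centring (0.99) and without OVCAR-8R arrays 2 and 4 (0.98). Signal near background limits the sizes of GALNT13, GCNT4, SLC35D2 and CD24. The dimmer lines of B3GALT1 (mean of 5.23 in OVCAR-8R) and GCNT2 (5.32 in OVCAR-8) lay only slightly above the filter cutoffs, so their sizes are also uncertain.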
